A study of Mus musculus with 4 samples.

Results

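Peaks of RNA crosslinked to the RNA-binding protein MSI2 were described over 10 transcription factor genes of intestinal identity and differentiation: Cdx1, Cdx2, Hnf4a, Hnf4g, Gata4, Gata6, Elf3, Klf4, Klf5 and Nr5a2. The genes were listed by name, out of 21900 protein-coding genes, and every deposited peak that shared 1 base or more with the span of a listed gene was taken. This gave 16 of 12061 peaks in the wild-type list and 24 of 16939 in the transgenic list. The measurement was CLIP-seq in mouse intestinal epithelial cells on a C57BL6 background. RNA and protein were joined with 2 pulses of ultraviolet light, the complexes were precipitated with an antibody to MSI2, and the RNA fragments from a band near 50 kD were sequenced. Of the 4 libraries, 2 came from WT mice and 2 from TRE-Msi2 mice, in which Msi2 is placed under a doxycycline-responsive element. Per the labels' protocols, the TRE-Msi2 cells were whole epithelium taken after 24 h of doxycycline, while crypts were taken from the WT mice, with no doxycycline recorded for them. Genotype, tissue fraction and doxycycline therefore cannot be told apart in any difference between the lists. Age, sex, pooling of animals and the source of the doxycycline-controlled activator are not given in the labels.

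The authors merged the libraries of each genotype before they deposited the peaks, so each genotype is 1 list without spread between replicates, and differences between genotypes are given as values and not tested. The score of a peak is the authors' own and is read here as reads per 200-nt bin for single-bin peaks. For wider peaks it can lie below the reads per bin, as set out further on. With library depth unknown, it was compared only within a list. Single-bin peaks started at a score of 15 in WT and 20 in TRE-Msi2. The medians over all peaks were 19 and 24.7 in that order. No RNA abundance or input library was used, so a peak mixes the amount of a transcript with its binding, and in these bulk samples fewer cells with a transcript and less transcript per cell cannot be told apart. Markers matched an epithelial sample: peaks in both lists lay over 4 of 4 general epithelial and 8 of 8 enterocyte genes, and over 0 of 5 stromal genes in either. Peaks in both lists also lay over 4 of 4 Paneth, 4 of 4 goblet and 3 of 4 enteroendocrine genes. The WT cells are given as crypts, and how far they held cells from outside the crypt was not tested. Of 4 immune genes, 2 (Lyz2 and Cd74) held peaks in both lists. Whether the samples also held stromal or immune cells was not tested.

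The proteins encoded by these genes bind DNA and together hold the intestinal epithelium in its fate. CDX1 and CDX2 are caudal-type homeobox proteins, and CDX2 sets the intestinal rather than gastric programme of the endoderm. HNF4A and HNF4G are nuclear receptors with overlapping action on enterocyte genes of lipid and nutrient handling. GATA4 and GATA6 are zinc-finger factors, and GATA4 sets the jejunal rather than the ileal programme. KLF5 is abundant in dividing crypt cells and KLF4 in cells that have stopped dividing, goblet cells included. ELF3 is an epithelial ETS factor and NR5A2, also called LRH-1, is a nuclear receptor of crypts. MSI2 acts on messenger RNA, mainly on its stability and translation, so the peaks below concern the transcripts of these genes and not the DNA sites of their proteins.

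Peaks lay over 5 of the 10 genes in the WT list and over 8 in the TRE-Msi2 list. Over all protein-coding genes the corresponding shares were 20.3% (WT) and 24.9% (TRE-Msi2). The 5 genes of the WT list, Hnf4a, Hnf4g, Gata4, Klf4 and Klf5, all held TRE-Msi2 peaks too. So did 4186 of the 4449 protein-coding genes with a WT peak. Thus 5 of the 10 held a peak in both lists, beside 19.1% of all protein-coding genes. Gata6, Elf3 and Nr5a2 held peaks in the TRE-Msi2 list alone (5.76% of protein-coding genes), and Cdx1 and Cdx2 in neither. In the WT list alone were 0 of the 10, beside 1.2% of protein-coding genes. The 95% Clopper-Pearson intervals, which cover counting error only, were 18.7% to 81.3% for 5 of 10 and 44.4% to 97.5% for 8 of 10. Among protein-coding genes with a TRE-Msi2 peak, 23.2% had no WT peak, beside 3 of 8 here (37.5%). Background genes include many that the epithelium does not express, so the shares say nothing on binding at a given abundance. The 10 genes were also chosen with earlier results of these data known. When each list was cut to its upper 50% by score, 2 genes (Hnf4a and Hnf4g) remained for WT and 6 for TRE-Msi2. When the TRE-Msi2 list was cut by score to as many peaks as WT had, 16 of its peaks lay over 6 listed genes, beside 16 WT peaks over 5. Counts of peaks also depend on how neighbouring bins were joined, and what underlies the difference in number was not tested.

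**Figure D1:**
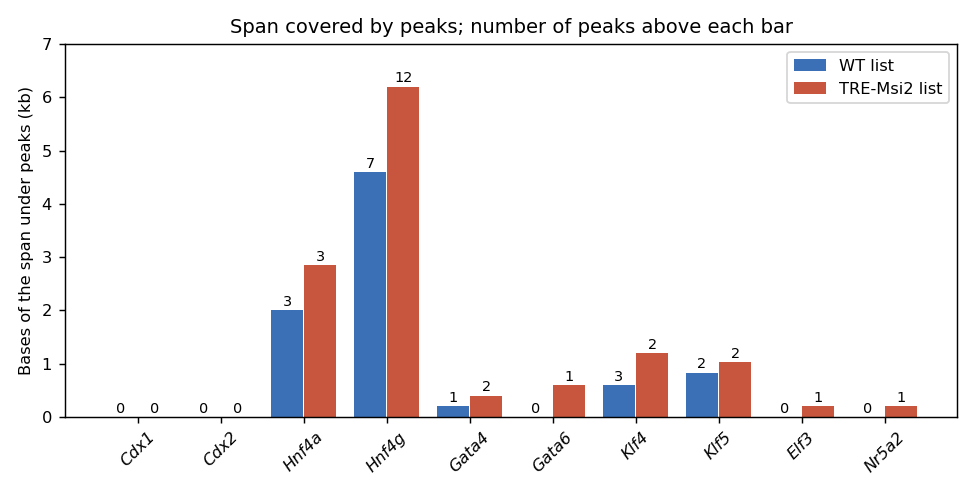
Bases of each gene span that lay under peaks, in kb, for the pooled WT list (blue) and the pooled TRE-Msi2 list (red); the number above each bar is the count of peaks. Hnf4g has the tallest bars, with 7 and 12 peaks, followed by Hnf4a with 3 and 3, while Cdx1 and Cdx2 are at 0. The TRE-Msi2 bar of Hnf4a includes its peak on the opposite strand.

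Hnf4g held the most peaks of the 10 genes in both lists. Its span (mm10 chr3:3508030-3659800, + strand, 152 kb) carried 7 WT and 12 TRE-Msi2 peaks, all on the transcribed strand. Of the 4449 protein-coding genes with a WT peak, 79 had more peaks than Hnf4g, and of the 5448 with a TRE-Msi2 peak, 34 had more. With ties and Hnf4g itself included, 113 and 42 had as many or more. The rank was not adjusted for length, and 93.4% of protein-coding genes had a shorter span. Its peaks covered 4600 bases of the span in WT and 6200 in TRE-Msi2, which is 55.9% and 48.9% of all bases under peaks over the 10 genes. The RefSeq table behind this span lists 1 curated and 1 predicted transcript.

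The peaks of Hnf4g were gathered at its 3′ end. All 7 WT peaks and 11 of the 12 TRE-Msi2 peaks lay in the last 21 kb, which is 13.8% of the span. This stretch was drawn from the start of the second TRE-Msi2 peak, so the 11 of 12 follows from how it was set. The last 10% of the span held the middle of 5 WT and 8 TRE-Msi2 peaks. The widest peak in both lists was the same 2800 nt, chr3:3657001-3659800, ending on the last annotated base, with a score of 30.3 in WT and 46.6 in TRE-Msi2. The highest score in both lists was at chr3:3651201-3651600, 8200 bases before the end. It was 31.5 in WT, where 91.9% of all peaks scored lower, and 65.5 in TRE-Msi2, where 99.0% did. Between and upstream of these, the WT list had single-bin peaks at scores of 25, 20, 17 and 15 and a 600-nt peak at 16.8. The TRE-Msi2 list had a peak over each of those 5 places, with scores of 34, 29, 27, 25 and 37.7.

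The remaining 5 TRE-Msi2 peaks of Hnf4g had no WT counterpart and scored from 20 to 22, close to the lowest single-bin score of that list. In contrast, the 7 with a WT counterpart scored from 25 to 65.5. One of the 5, chr3:3519201-3519400, stood apart from the others near the start of the span, 11171 bases from it, with a score of 20 (exact Poisson interval 12.2 to 30.9, counting error only).

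**Figure D2:**
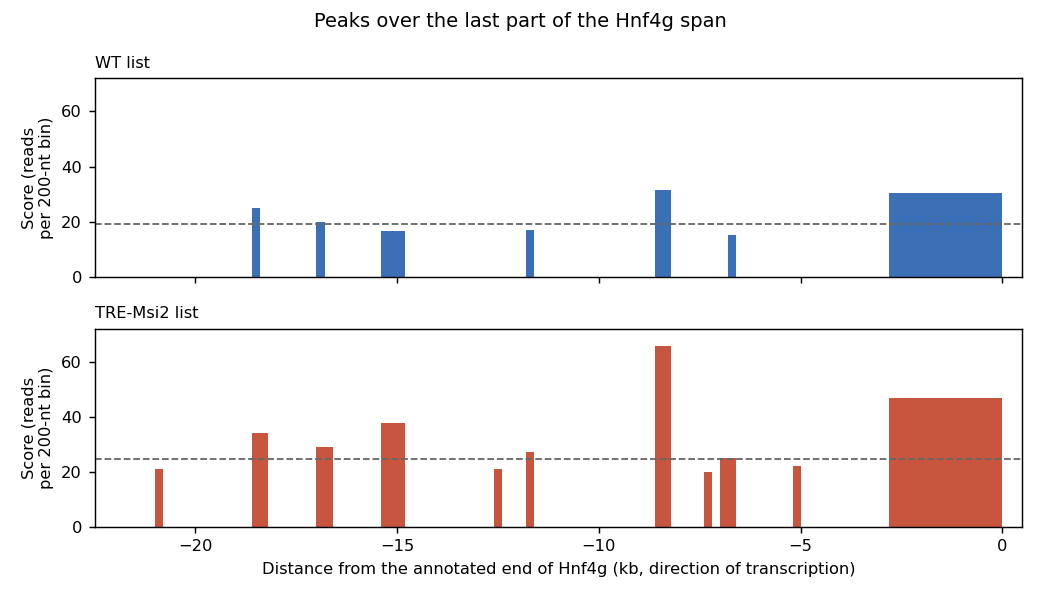
Peaks over the last part of Hnf4g, drawn to scale by their distance from the annotated gene end in kb. The height gives the authors' deposited score, labelled as reads per 200-nt bin, which for peaks of several bins can lie below the reads per bin. The dashed line is the median score of all peaks in that list (19 in WT, 24.7 in TRE-Msi2). The peaks at the 7 places of the WT list (top) recur in the TRE-Msi2 list (bottom), which adds 4 low single-bin peaks in this stretch.

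Hnf4a (chr2:163506811-163572907, + strand, 66.1 kb) held 3 peaks in each list. In WT a 1200-nt peak at chr2:163570465-163571664 scored 25.4 and a 600-nt peak at chr2:163572265-163572864 scored 21.3, centred 97.2% and 99.5% of the way along the span. In TRE-Msi2 a single 2600-nt peak, chr2:163570465-163573064, spanned both of them, scored 33.4 and ran 157 bases past the annotated end. A smaller peak inside the gene, chr2:163552465-163552664, was shared, with scores of 15 and 28. Its place is 69.2% of the way along the span and 20243 bases before the end.

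The third TRE-Msi2 peak of Hnf4a, chr2:163522265-163522464, lay on the opposite strand with a score of 20. It also lay inside Hnf4aos, an annotated antisense long noncoding RNA gene transcribed from the − strand, and it was the only peak of the 40 that touched another gene span or ran against its gene. This peak is therefore counted for Hnf4a by position alone. Despite the difference in span, the share of the span under peaks was alike in the pair: 3.03% in both genes for WT, and 4.30% in Hnf4a and 4.09% in Hnf4g for TRE-Msi2. The 4.30% includes the 200 bases of the opposite-strand peak, and the order of the pair in TRE-Msi2 rests on them.

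The Krüppel-like factor genes Klf4 and Klf5 both held peaks in both lists. Klf4 (chr4:55527137-55532475, − strand, 5.34 kb) held 3 separate WT bins in the 3′ part of the gene, with scores of 17, 16 and 19. The TRE-Msi2 list covered the same stretch with a single 1000-nt peak, chr4:55527129-55528128, at a score of 25.6. The lower count of peaks in TRE-Msi2 (2 against 3) thus goes with more bases under peaks, 1192 against 592. These 1192 bases are 22.3% of the span, the highest share of the 10 genes. The second TRE-Msi2 peak of Klf4, chr4:55531929-55532128, lay 347 bases from the gene start with a score of 23 and had no WT counterpart. With Hnf4g's outlying peak it was 1 of 2 TRE-Msi2 peaks in the first 10% of a gene.

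Klf5 (chr14:99298691-99313412, + strand, 14.7 kb) held 2 peaks in each list, at the same 2 places. The inner one began 2691 bases from the gene start and was 800 nt wide with a score of 18 in WT, and 1000 nt wide with a score of 32.8 in TRE-Msi2. The outer one began at 99313382, so that only 31 of its bases fell within the annotated span. In the WT list it was a single bin (score 18), and a further 1000-nt peak with a score of 39.6 began 570 bases beyond the annotated end, on the same strand. That WT peak is outside the span and is not among the 16. In the TRE-Msi2 list both were joined in 1 peak, chr14:99313382-99314981, with a score of 47.4, of which 1569 of 1600 bases lay past the annotated end. On a 1-base rule Klf5 therefore ranked low in WT (18, with 39.4% of peaks lower) and high in TRE-Msi2 (47.4, with 96.6% lower), and the excluded WT peak stood at 96.8%.

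The GATA genes held few peaks, at their ends. Gata4 (chr14:63198914-63271712, − strand, 72.8 kb) held a shared single-bin peak at chr14:63198964-63199163, 50 bases before the annotated end. Its score was 15 in WT (Poisson interval 8.40 to 24.7), the lowest of any single-bin peak there, and 35 in TRE-Msi2 (24.4 to 48.7), where 86.1% of peaks scored lower. A second TRE-Msi2 peak lay 850 bases before the end with a score of 20. Gata6 (chr18:11052510-11085636, + strand, 33.1 kb) held 1 TRE-Msi2 peak of 600 nt, chr18:11085003-11085602, ending 34 bases before the gene end. Its score of 17 was below the lowest single-bin score of the list, and 2.37% of peaks scored lower.

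Elf3 and Nr5a2 held 1 single-bin TRE-Msi2 peak each. In Elf3 (chr1:135253574-135258472, − strand, 4.90 kb) it lay 50 bases before the gene end, at chr1:135253624-135253823, with a score of 27 (interval 17.8 to 39.3), above the list median. In Nr5a2 (chr1:136842562-136960448, − strand, 118 kb) it lay 2662 bases before the end, at chr1:136845224-136845423, with a score of 20 (12.2 to 30.9), the lowest single-bin score. The absence of both from the WT list carries no interval, since that list holds only peaks above its threshold.

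Cdx1 (chr18:61018862-61036199, − strand, 17.3 kb) and Cdx2 (chr5:147300900-147307249, − strand, 6.35 kb) held 0 peaks in both lists, and none lay near them. The peak nearest to Cdx2 in both lists was 146 kb away in Pan3. For Cdx1 it was 157 kb away in WT, and in TRE-Msi2 it was a peak in Camk2a 30.9 kb away. A transcript below the score threshold would also leave no peak, so these counts do not show that the transcripts were unbound.

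Over all listed genes, peaks lay toward gene ends and on the transcribed strand. The middle of the peak fell in the last 10% of the gene, or past its end, for 11 of 16 WT peaks (68.8%, interval 41.3% to 89.0%) and 16 of 24 TRE-Msi2 peaks (66.7%, 44.7% to 84.4%). Over protein-coding genes with a strand in the table used, the shares were 53.5% and 48.6%, within both intervals. The intervals treat peaks as independent, although 7 of the 16 WT and 12 of the 24 TRE-Msi2 peaks lay in Hnf4g. They therefore do not decide how the listed genes compare with these shares. Counted by the last 2 kb instead, the share was 50% in WT and 33.3% in TRE-Msi2, because most Hnf4g peaks lie farther from its end. The share over all protein-coding genes was not counted by this measure. On the transcribed strand lay 16 of 16 WT and 23 of 24 TRE-Msi2 peaks, beside 84.3% and 86.3% of peaks over a single protein-coding gene. Strand was textbook orientation for 5 of the 10 genes. RefSeq promoter windows, from 250 bases before to 50 after a transcript start, were given for Cdx2, Elf3, Hnf4a, Klf4 and Nr5a2, and 0 peaks touched any of these 7 windows. Exon and untranslated region boundaries were not used here, so places are given along the gene span.

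**Figure D3:**
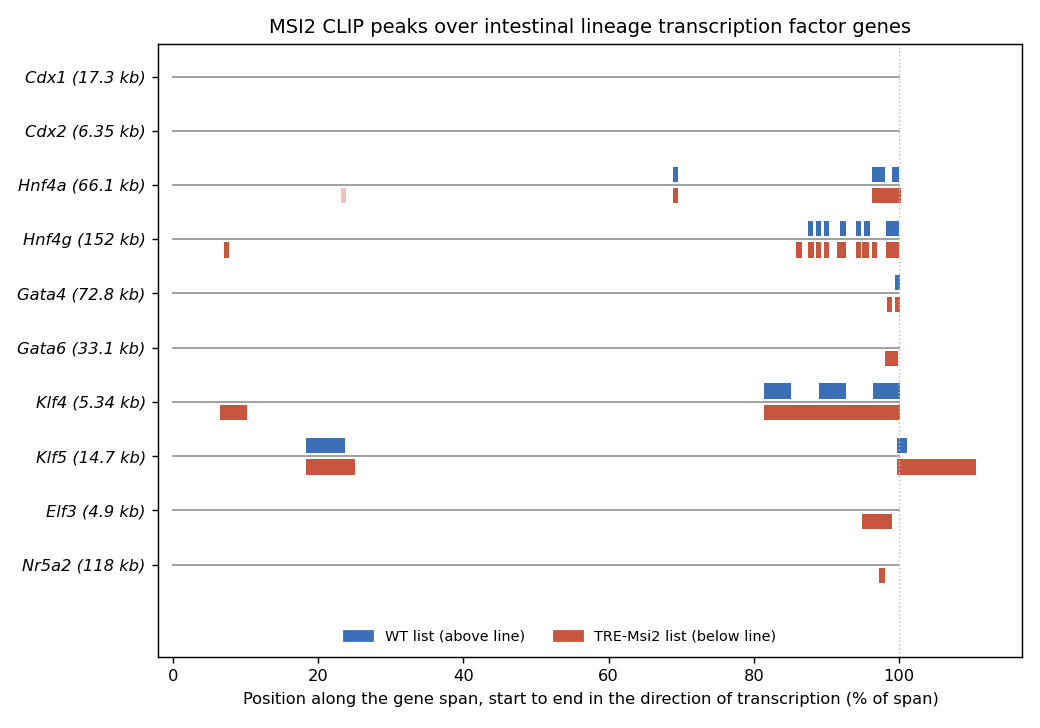
Peaks along each gene span, from start (0%) to annotated end (100%, dotted line) in the direction of transcription, with WT peaks above and TRE-Msi2 peaks below each line; narrow peaks are drawn at a minimum width, and the pale mark is the Hnf4a peak on the opposite strand. Most marks sit near 100%, the Klf5 peaks run past it, and Cdx1 and Cdx2 are empty.

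By rank of the deposited score, the peaks of the listed genes ran from 7.03% to 91.9% of peaks lower in the WT list. In the TRE-Msi2 list they ran from 2.37% to 99.0%. In WT the top scores fell in the order Hnf4g (31.5), Hnf4a (25.4), Klf4 (19), Klf5 (18) and Gata4 (15). In TRE-Msi2 the order was Hnf4g (65.5), Klf5 (47.4), Gata4 (35), Hnf4a (33.4), Elf3 (27), Klf4 (25.6), Nr5a2 (20) and Gata6 (17). The place of Klf5 rests on a peak with only 31 bases inside the span. Its inner TRE-Msi2 peak scored 32.8, below Gata4 and Hnf4a. Neighbours measured by single bins, Elf3 (17.8 to 39.3) and Gata4 (24.4 to 48.7) among them, had overlapping counting intervals. The median score was 18 over the 16 WT peaks, beside 19 for the whole list, and 26.3 over the 24 TRE-Msi2 peaks, beside 24.7. Of the WT peaks 6 of 16 lay above the list median and of the TRE-Msi2 peaks 14 of 24 did. By top score, 593 of the 4449 genes with a WT peak stood above Hnf4g, and 108 of 5448 did in TRE-Msi2.

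**Figure D4:**
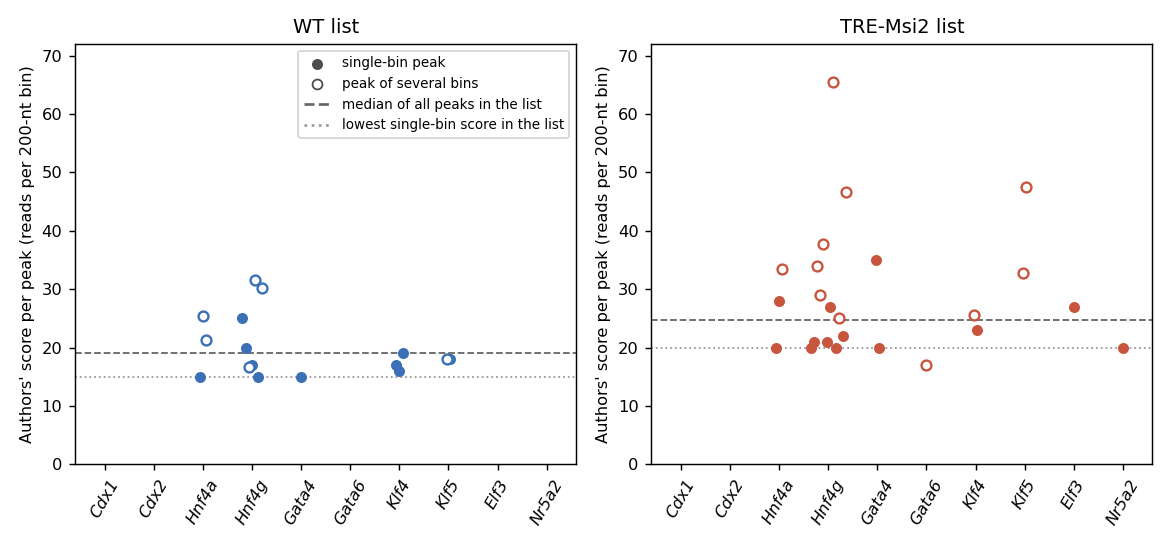
The authors' deposited score of every peak over the listed genes, with WT at left and TRE-Msi2 at right. It is labelled as reads per 200-nt bin, which for peaks of several bins it can lie below. Filled points are single-bin peaks and open points are peaks of several bins. The dashed line is the median of the whole list and the dotted line its lowest single-bin score. Hnf4g reaches the top of both panels (31.5 and 65.5), and the open point of Gata6 (17) lies under the dotted line.

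Wider than 1 bin were 6 of 16 WT peaks (37.5%) and 11 of 24 TRE-Msi2 peaks (45.8%), beside 34.5% and 36.6% over protein-coding genes. How the score of a wide peak was formed bears on the rank of Gata6, Klf4, Hnf4a, Hnf4g and Klf5. In 91.0% of the WT and 62.0% of the TRE-Msi2 peaks wider than 1 bin, score and p-value had the values of a mean over the bins plus a whole number of extra entries (0 included), each with a p-value of 1. With each extra entry counted as 1 read, the lowest score per bin among the peaks that had them was 15 in WT and 20 in TRE-Msi2, the same as the lowest single-bin scores. On that reading the Gata6 peak held 27.7 reads per bin, with 59.1% of TRE-Msi2 peaks lower, in place of 17. The Klf4 peak held 35.4 in place of 25.6, and the wide TRE-Msi2 peak of Hnf4a 45.9 in place of 33.4. The WT end peak of Hnf4g held 44.9, with 97.2% of WT peaks lower, in place of 30.3. In Klf5 the end peak of TRE-Msi2 held 53.3 in place of 47.4 and the inner WT peak 22.3 in place of 18. This reading puts Klf5 above Klf4 (19) in WT, and the WT end peak of Hnf4g above its peak at 31.5. In TRE-Msi2 it puts Hnf4a and, narrowly, Klf4 above Gata4 (35), and Gata6 above Elf3 (27). This arithmetic could be applied to 5 of 6 wide WT peaks and 10 of 11 wide TRE-Msi2 peaks over these genes. It was worked out after the scores had been seen, and the deposited scores are used elsewhere.

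Every WT peak over a listed gene was overlapped on the same strand by a TRE-Msi2 peak, 16 of 16 (interval 79.4% to 100%), beside 91% over protein-coding genes. All 8.22 kb of span under WT peaks also lay under TRE-Msi2 peaks, and these bases were 64.9% of the 12.7 kb under TRE-Msi2 peaks. In the other direction 13 of 24 TRE-Msi2 peaks had a WT counterpart (54.2%, 32.8% to 74.4%), beside 58.7% over protein-coding genes. Both intervals again treat peaks of the same gene as independent. The 13 scored from 25 to 65.5 with a median of 33.4, and the 11 without a counterpart from 17 to 27 with a median of 20. Over the whole TRE-Msi2 list the medians of these classes were 27 and 23. Of the 11, 10 were single bins, and the exception was Gata6. Of those 11 peaks, 5 belonged to Hnf4g and the other 6 to Hnf4a, Gata4, Gata6, Elf3, Klf4 and Nr5a2. Counts of bins depend on how neighbouring bins were joined: among single-bin peaks of both lists only 3 of 10 WT peaks had a counterpart, since the TRE-Msi2 peak at the same place was often wider.

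Another 40 transcription factor genes of intestinal lineages, also chosen with earlier results of these data known, were set beside the 10. Of the 40, 13 (32.5%) held a WT and 15 (37.5%) a TRE-Msi2 peak, 12 of them in both lists. Over all protein-coding genes the shares were 20.3%, 24.9% and, for both lists, 19.1%. The 5 genes with the highest TRE-Msi2 scores, given after the WT value, began with Isx (27 and 57), an intestine-specific homeobox gene, Vdr (23 and 40), the vitamin D receptor, and Maf (39.5 and 38.5), a factor of enterocyte maturation. Zbtb7b reached 18 and 34, and Nr1i2, the pregnane X receptor, 15 and 33. In WT the order differed, with Tcf7l2 (28), the Wnt effector gene, and Myb (27.5) next after Maf. All peaks of Vdr also touched another gene span. Foxp1, Creb3l3 and Onecut2 held peaks in TRE-Msi2 alone, with top scores of 20, 22 and 25. Nr1h4, the bile acid receptor FXR, held a peak in WT alone, with a score of 18. Among all protein-coding genes, 5.76% held peaks in TRE-Msi2 alone and 1.2% in WT alone.

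Of 24 textbook target genes of these factors, 20 held peaks in both lists (83.3%), beside 19.1% of all protein-coding genes. That background includes many genes the epithelium does not express, so the count says nothing on binding at a given abundance. The 24 were chosen with earlier results of these data known, so the high share may follow from the choice. Some of them, Fabp2, Cdh17, Apob and Apoa4 included, were also counted among the epithelial and enterocyte genes above. Those with the highest TRE-Msi2 scores were Fabp2, which carries fatty acids, with top scores of 78 in WT and 98.3 in TRE-Msi2, the cadherin gene Cdh17 (56.6 and 85.5) and Apob (81.4 and 82.7), the chylomicron apolipoprotein. The glucose transporter gene Slc5a1 (56.1 and 81.9) and Apoa4 (57 and 79.3) followed. In WT the order differed: Apob stood above Fabp2, and Fabp1 (61) above the other 3. These 5 were picked for their high scores, so they do not stand for the 24. All peaks of Fabp2 also touched another gene span.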

How the data were processed

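Per the submitters' processing notes, cutadapt, TopHat and the builds mm9 and mm10 were used; their roles and versions: not given in the sources used here. Per the file names, duplicate reads were removed, the 2 libraries of a genotype were merged and peaks were called with Piranha. Each deposited row has a place, its strand, and the authors' score and p-value written in 1 cell. Positions were taken as mm10 and assigned with RefSeq gene spans of GRCm38.p6, which hold no exons. Strand came from the RefSeq promoter table for 5 listed genes and from textbook orientation for 5. Overlap needed 1 base, and between lists the same strand. Extra entries of a wide peak were accepted where their number was whole within 0.05 and the summed score within 0.02. Depth is unknown. Overlap code was tested on simulated peaks. Python 3.11.15, pandas 2.3.3, numpy 2.4.6 and scipy 1.17.1 were used. All 10 listed genes were named; from the other lists, the 5 genes with the highest top score and those held by 1 list alone. Members and lists were chosen with earlier results of these data known. Of 12 alternatives tried, 2 were added after seeing the data.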

Additional observations from a re-analysis of the deposited data

How the results depend on the processing

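No paired analysis was possible because the authors merged the libraries of each genotype, so no library could be left out or paired. Cut to its upper 50% by score, the WT list kept 2 of 5 listed genes, 6 peaks and 2 genes shared by both lists, and the TRE-Msi2 list 14 peaks; by score per bin, an alternative chosen after seeing the data, these were 3, 7, 3 and 14. With single-bin peaks alone there were 10 WT and 13 TRE-Msi2 peaks, of which 30% and 23.1% had a counterpart. Without Hnf4g, also chosen after seeing the data, 9 WT and 12 TRE-Msi2 peaks remained. When only the highest-scoring TRE-Msi2 peaks were used, as many as WT had, 16 lay over 6 listed genes and 81.3% of these had a WT counterpart. By the last 2 kb of the gene, 33.3% of TRE-Msi2 peaks lay at the gene end. The other 87 of 103 values stayed within 1.5 times the reported count or within the interval of the reported share. Unknown depth and the lack of an abundance library limit every count.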

Other observations

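Of 26 paralogs of the listed genes in the caudal, GATA, Krüppel-like, ETS and nuclear receptor families, 7 held a WT and 9 a TRE-Msi2 peak. These are 26.9% and 34.6%, beside 20.3% and 24.9% of all protein-coding genes, and this list too was chosen with earlier results known. Gata5, the other GATA gene of the gut epithelium, held 1 WT and 2 TRE-Msi2 peaks with top scores of 28 and 43, both above the scores of Gata4 (15 and 35) in the same list. Klf3, a repressor of the Krüppel-like family, held 5 and 6 peaks (top scores 27 and 42), more than Klf4 or Klf5. Elf1 held 4 and 7 (23 and 41). Klf12, with a span of 420 kb, held 2 peaks in each list, and 0 of them lay on its transcribed strand. Klf9 and Elf2 held peaks in TRE-Msi2 alone (5.76% of protein-coding genes), with top scores of 25 and 16.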
